A study of Mus musculus with 2 samples.

Results

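Genes of the liver sinusoid's lining and of its scavenger receptors were examined in a droplet-based single-cell RNA-seq data set of mouse liver. The 6 genes, Stab2, Mrc1, Clec4g, Fcgr2b, Kdr and Fabp4, were found by name in the authors' deposited table of all cells, where they took up 12 of 3742 rows and were 6 of the 1755 genes listed. Hepatocytes were isolated by enzymatic perfusion from fasted wild type BALB/c males, aged 8 to 10 weeks in the study's methods, that had received PBS or recombinant IL-33 (rIL-33, 0.5 µg) as 1 injection a day for 5 days. Each condition gave 1 library, 2 in all, and the number of animals behind each was not given in the sources used here. The cells were not sorted, and endothelial cells, Kupffer cells and blood cells were sampled beside hepatocytes. The deposited table pools both libraries, so nothing here compares PBS with rIL-33, and no replicate spread exists for any value.

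Liver sinusoidal endothelial cells form a fenestrated lining without a basement membrane, and together with Kupffer cells, the resident macrophages, they clear waste macromolecules, immune complexes and denatured proteins from portal blood. They do so through endocytic receptors that recognise sugars, polyanions or the Fc part of IgG. Stab2 encodes stabilin-2, which takes up hyaluronan. Mrc1 encodes the macrophage mannose receptor (CD206), and Clec4g the C-type lectin LSECtin. Fcgr2b encodes the inhibitory low-affinity IgG receptor, which also clears small immune complexes. Kdr encodes a receptor tyrosine kinase for VEGF-A, and Fabp4 an intracellular fatty acid carrier of capillary endothelium, adipocytes and macrophages.

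All 6 genes lie on different chromosomes of GRCm38 (mm10) in the GENCODE M21 annotation. Stab2 spans chromosome 10 from 86841198 to 87008025 (minus strand), and its longest basic transcript has 69 exons. Mrc1 lies on chromosome 2 from 14229392 to 14332057 (plus strand) with 30 exons, and Kdr on chromosome 5 from 75932827 to 75978458 (minus strand), also with 30. Fcgr2b lies on chromosome 1 from 170958617 to 170976547 (minus strand) with 8 exons. The shortest genes are Clec4g, on chromosome 8 from 3707064 to 3720651 (minus strand) with 5 exons, and Fabp4, on chromosome 3 from 10204088 to 10208576 (minus strand) with 4. Upstream sequence was taken from RefSeq (GRCm38.p6), whose table matched 5 of the 6 genes, all but Fabp4. The part shown runs from 250 to 101 bases before the RefSeq start, 150 bases read along the gene's strand, and is shown for the 4 genes where it overlaps no annotated exon. It shows whether genes listed for the same clusters hold the same short motifs. Capitals mark GGAAG or its complement CTTCC, the core bound by ETS factors; GATAA and its complement TTATC, bound by GATA factors, were also searched on both strands, and no match of one overlapped the other.
Stab2, chr10:87008043-87008192, minus strand: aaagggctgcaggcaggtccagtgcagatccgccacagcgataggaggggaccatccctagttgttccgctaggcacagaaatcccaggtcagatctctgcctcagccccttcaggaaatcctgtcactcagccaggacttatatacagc
Clec4g, chr8:3720752-3720901, minus strand: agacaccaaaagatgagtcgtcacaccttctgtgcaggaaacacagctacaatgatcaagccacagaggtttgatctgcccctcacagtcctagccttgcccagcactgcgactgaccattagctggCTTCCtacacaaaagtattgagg
Kdr, chr5:75978556-75978705, minus strand: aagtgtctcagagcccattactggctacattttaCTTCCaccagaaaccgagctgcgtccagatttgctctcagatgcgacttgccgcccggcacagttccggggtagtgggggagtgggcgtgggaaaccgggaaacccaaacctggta
Mrc1, chr2:14229164-14229313, plus strand: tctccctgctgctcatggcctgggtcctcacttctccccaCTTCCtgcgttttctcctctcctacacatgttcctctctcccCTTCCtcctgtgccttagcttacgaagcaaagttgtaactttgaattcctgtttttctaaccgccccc
The ETS core was found in 3 of these 4 windows, with 2 matches in Mrc1 and 1 each in Clec4g and Kdr, and in 44.4% of the 32851 windows of the same position and length in the whole table. GATAA was found in 0 of the 4, against 15.6% of all windows. The window of Fcgr2b, not shown because it overlaps an annotated exon, held 0 matches of either motif. With 4 windows these counts are a description only.

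Detection was measured as the percentage of cells above 0, which the authors' deposited table gives as a fraction for a cluster and for all cells outside it. Clusters bear the names the authors gave them. The table lists a gene for a cluster only if the larger of both shares is at least 25%, and a gene without a row may still be expressed in that cluster. The 6 genes were listed for 4 of the 12 clusters: 5 for the cluster named Endothelial cell, 4 for the cluster named HSC / fibroblast (hepatic stellate cells and fibroblasts), 2 for Kupffer cells and 1 for B cells. The other 8 clusters, all 5 hepatocyte clusters among them, had no row for any of the 6 genes, and the authors' deposited hepatocyte table had 0 rows for them. In every one of the 12 rows the share was higher inside the cluster than outside. Over all 1755 genes, a higher share inside was listed for 3.53% in the endothelial cluster, 30.3% in the HSC and fibroblast cluster, 24.1% in Kupffer cells and 27.6% in B cells. The genes had been chosen by the mean change and the shares of these same rows, and the clusters were made from the same cells, so the counts describe the genes and test nothing.

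**Figure D1:**
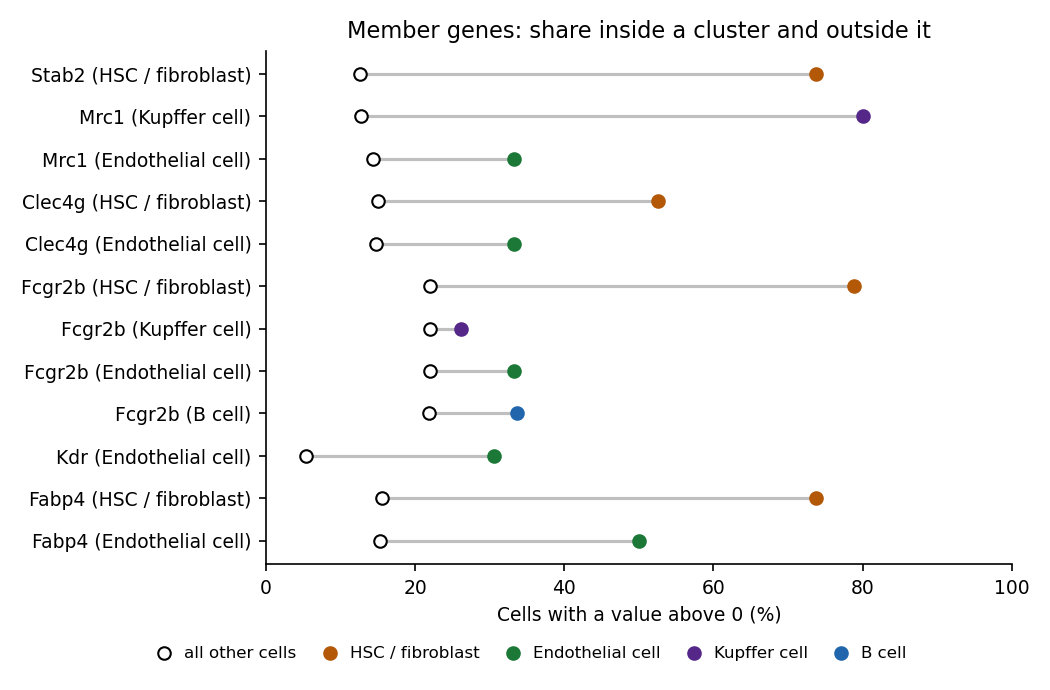
Percentage of cells above 0 (x axis, percent) for each of the 12 rows of the 6 genes; filled points are the cluster named on the y axis, coloured by cluster, and open points are all other cells. The filled points of the HSC and fibroblast cluster lie between 52.6% and 78.9%, those of the endothelial cluster between 30.6% and 50%, and the single point above 80% is Mrc1 in Kupffer cells.

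Among the scavenger receptors, Stab2 had a row for the HSC and fibroblast cluster alone. A value above 0 was found in 73.7% of its cells and in 12.6% of all other cells, a difference of 61.1 percentage points. The endothelial cluster had no row for Stab2, so its share there is not known. Mrc1 went with the macrophages instead. The share of Kupffer cells with Mrc1 was 80.1% against 12.8% of all other cells, and the difference of 67.3 points ranked 7 of the 499 genes listed for Kupffer cells. By the ratio of both shares, 6.26, it ranked 88. In the endothelial cluster Mrc1 was above 0 in 33.3% of cells and in 14.4% of all others.

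The lectin Clec4g was above 0 in 52.6% of the cells of the HSC and fibroblast cluster against 15.0% outside. In the endothelial cluster it was above 0 in 33.3% of cells against 14.8% outside. Among the 4 members listed for the HSC and fibroblast cluster, Clec4g thus had the lowest share, and its difference ranked 421 of 535 genes.

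Fcgr2b was the most widely listed of the genes, with rows for 4 clusters. Its share was 78.9% in the HSC and fibroblast cluster against 22.0% outside. In the endothelial cluster it was 33.3% against 22.0%, and in B cells, where the receptor restrains signalling through the B cell receptor, 33.6% against 21.9%. Kupffer cells came last with 26.2% against 22.0%, a difference of 4.2 points and a ratio of 1.19. That row also lies closest to the listing limit of 25%. No error can be set beside the order of B cells, endothelial and Kupffer cells.

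Kdr was listed for the endothelial cluster alone, in 30.6% of its cells against 5.4% of all others. It had the lowest share outside of the 6 genes, and its ratio of 5.67 was the highest of the 5 genes listed for that cluster, rank 10 of 98. Fabp4 had the largest difference in the endothelial cluster, 34.7 points, from 50% inside and 15.3% outside, and ranked 4 of the 98 genes there. By the ratio of shares it ranked 19. In the HSC and fibroblast cluster Fabp4 was above 0 in 73.7% of cells against 15.6% of all others.

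Clec4g, Fcgr2b and Fabp4 were listed for both the endothelial and the HSC and fibroblast cluster, and the share of each was higher in the latter, by 19.3, 45.6 and 23.7 percentage points. This order was not particular to them. Of the 67 genes listed for both clusters, 67 (100%) had the higher share in the HSC and fibroblast cluster, by a median of 50.2 points (range 14.6 to 74.1). By this difference Clec4g ranked 65 and Fabp4 63 of the 67. The 67 include genes with a lower share inside the endothelial cluster than outside, such as Tmem123 (15.7% against 31.4%). Shares inside the HSC and fibroblast cluster were coarse: over its 535 genes they took 16 distinct values, neighbouring values being 5.2 to 10.5 points apart, so ties and close ranks among them cannot be resolved. The shares inside the endothelial cluster took 43 distinct values over 98 genes. The HSC and fibroblast cluster also had a higher median share over its listed genes, 73.7% against 29.6% in the endothelial cluster. These medians are over unlike sets. Of the 98 genes listed for the endothelial cluster, 36 had a lower share inside, against 4 of the 535 for the HSC and fibroblast cluster. A share above 0 rises with the transcripts counted per cell, and the depth of the cells is unknown, so a difference in depth and a difference in expression cannot be told apart. Mrc1 and Fcgr2b were listed for both endothelial and Kupffer cells. Mrc1 had the higher share in Kupffer cells and Fcgr2b in the endothelial cluster, while 77.8% of the 36 genes listed for both had the higher share in Kupffer cells.

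**Figure D2:**
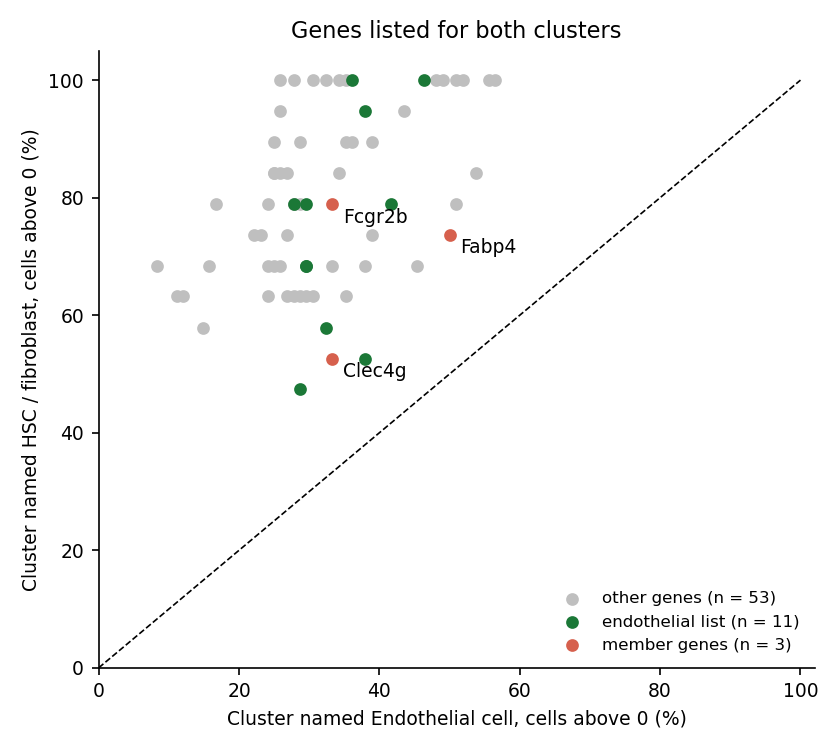
Percentage of cells above 0 in the cluster named Endothelial cell (x axis, percent) and in the cluster named HSC / fibroblast (y axis, percent) for the 67 genes listed for both; red points are Clec4g, Fcgr2b and Fabp4, green points genes of the endothelial list, grey points all others, and the dashed line marks equal shares. All 67 points lie above the line, and Clec4g and Fabp4 lie among those nearest to it.

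The names of these clusters were set against lists of marker genes. Of 46 further endothelial genes, 29 were listed for at least 1 cluster. The HSC and fibroblast cluster listed all 29 of these with a higher share inside, and the endothelial cluster 11. The backgrounds over all genes were 30.3% and 3.53%. With all 29 listed for the former, the 11 were necessarily among them. Of all 98 genes listed for the endothelial cluster, 67 were also listed for the HSC and fibroblast cluster, counting rows of either direction. Tmem123, for example, was lower inside the endothelial cluster (15.7% against 31.4% outside) and higher inside the HSC and fibroblast cluster (68.4% against 31.2%). The pan-endothelial genes Pecam1 (adhesion at cell contacts), Cdh5 (VE-cadherin) and Eng (a TGF-β co-receptor) were listed for the HSC and fibroblast cluster, at 73.7%, 73.7% and 100% of its cells, and not for the endothelial cluster. Pecam1 was also listed for Kupffer cells (30.1% against 5.0% outside) and T cells (35.8% against 5.3%), and Cdh5 for Kupffer cells (26.5% against 4.7%). The sinusoidal gene Gpr182 was listed for both, at 78.9% of the HSC and fibroblast cluster and 27.8% of the endothelial cluster. The largest differences from all other cells within the endothelial list were, in the endothelial cluster, those of Gpihbp1 (31.1 points), Ets1 (31.0), Dnase1l3 (29.1), Ptprb (28.9) and Fam167b (28.5). Ets1 had a larger difference in T cells (73.0% against 10.1% outside) and was also listed for B cells (28.7% against 10.6%). Aqp1, another of the 11, was above 0 in 29.6% of the endothelial cluster and in 90.0% of red blood cells. Of 14 stellate and fibroblast genes, 11 were listed for the HSC and fibroblast cluster, at shares between 73.7% and 100% of its cells. Lrat, the enzyme that stores retinol as ester in stellate cells, was above 0 in 94.7% of them, and the collagen gene Col1a2 in 100%. The endothelial cluster listed Dcn, a matrix proteoglycan of fibroblasts, at 48.1% against 12.3% outside, and Bgn at 27.8% against 6.0%. The difference of Dcn there, 35.8 points, ranked 2 of the 98 genes and was larger than that of any gene of the endothelial list. The cluster named HSC / fibroblast thus carried stellate and endothelial genes at once. The cluster named Endothelial cell likewise listed 2 of the 14 stellate and fibroblast genes beside its 11 endothelial genes. Neither cluster listed any of the 13 Kupffer genes, 7 B cell genes or 8 hepatocyte genes examined. Kupffer cells listed 12 of the 13 Kupffer genes and B cells 4 of the 7 B cell genes, beside backgrounds of 24.1% and 27.6%. Of the sinusoidal genes, Stab1 and Lyve1 had no row for any cluster.

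Other genes of the same pathways were tallied from lists. Of 30 scavenger receptors and endocytic lectins, 17 were listed, 14 of them for Kupffer cells with a higher share inside, 6 for the HSC and fibroblast cluster and 1 for the endothelial cluster, where the backgrounds over all genes were 24.1%, 30.3% and 3.53%. The counts for the HSC and fibroblast cluster and the endothelial cluster thus lay near the background. Some were listed for hepatocyte clusters, among them Lrp1, Scarb1 and Scarb2, at 68.2% to 76.9% in Hepatocyte4 and 83.4% to 98.0% in Hepatocyte5. The largest share in Kupffer cells was that of Clec4f, a lectin of Kupffer cells, at 89.1% against 22.5% outside. Msr1, the class A scavenger receptor, was above 0 in 63.2% of the HSC and fibroblast cluster, with 2.1% of all other cells, and in 51.3% of Kupffer cells, with 0.8%. The single gene in the endothelial cluster was Cd36, a receptor for fatty acids and oxidised lipoproteins, at 38.0% against 25.1%, which was also listed for red blood cells at 50% against 25%. Scarb1, the HDL receptor, was the single gene listed for Kupffer cells with a lower share inside, 42.1% against 42.3%, and was higher inside Hepatocyte4 (71.6% against 36.5%) and Hepatocyte5 (94.7% against 41.6%).

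Of 7 further Fc receptor genes, 4 were listed, all 4 of them for Kupffer cells, as Fcgr2b was, beside a background of 24.1% of all genes. The endothelial cluster listed 0 of the 4, beside a background of 3.53% of all genes. Fcer1g, the signalling chain shared by several Fc receptors, was like Fcgr2b also listed for B cells, at 31.6% against 29.5%. Fcgr3, an activating IgG receptor, was above 0 in 55.3% of Kupffer cells, against 14.1% outside, and in 55.3% of neutrophils, against 14.4%. Fcgr3 and Fcgr2b resemble each other in sequence, and how the counting treated reads that match both is not given in the sources used here. The neonatal receptor Fcgrt, which recycles IgG and albumin, was above 0 in 73.7% of the HSC and fibroblast cluster, 75.5% of Kupffer cells and 88.1% of Hepatocyte5, with 42.4% to 43.2% of the cells outside.

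Of 12 VEGF and angiopoietin genes, 4 were listed. The receptor Flt4 was above 0 in 73.7% of the cells of the HSC and fibroblast cluster, and Flt1 and Nrp2 each in 26.3%, with at most 3.4% of all other cells. Vegfa, the ligand of the receptor that Kdr encodes, was listed for Hepatocyte4 at 52.0% against 35.1% outside and for Hepatocyte5 at 70.9% against 37.4%. Of 9 genes of fatty acid binding and uptake, 5 were listed. Gpihbp1, which carries lipoprotein lipase across capillary endothelium, was above 0 in 32.4% of the endothelial cluster against 1.3%, and in 57.9% of the HSC and fibroblast cluster against 1.5%. Of the paralogs of Fabp4, Fabp5 was listed for T cells at 39.2% against 12.3% outside, and Fabp7 for Kupffer cells at 34.4% against 0.5%. Neither had a row for the endothelial or the HSC and fibroblast cluster, where their shares are not known.

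All of the 6 genes but Kdr were above 0 in more than 12% of the cells outside each of their clusters. In the HSC and fibroblast cluster the 4 genes had shares outside of 12.6% to 22.0%, and their median of 15.3% was also the median of all 535 genes listed for that cluster. In the endothelial cluster the shares outside of the 5 genes were 5.4% to 22.0%, and their median of 14.8% lay below that of all 98 genes listed, 26.8%. These sets are unlike, since the 5 genes all had a higher share inside, whereas 36 of the 98 had a lower one. The further endothelial genes had lower shares outside, with a median of 3.5% (range 0.1 to 40.9%) for the 29 in the HSC and fibroblast cluster and of 5.5% (range 0.5 to 19.6%) for the 11 in the endothelial cluster. The median was 18.5% for the 6 scavenger receptors and lectins of the HSC and fibroblast cluster. For the Kupffer genes in Kupffer cells it was 19.8%, beside 22.1% for all 499 genes listed there, 74 of which had a lower share inside.

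**Figure D3:**
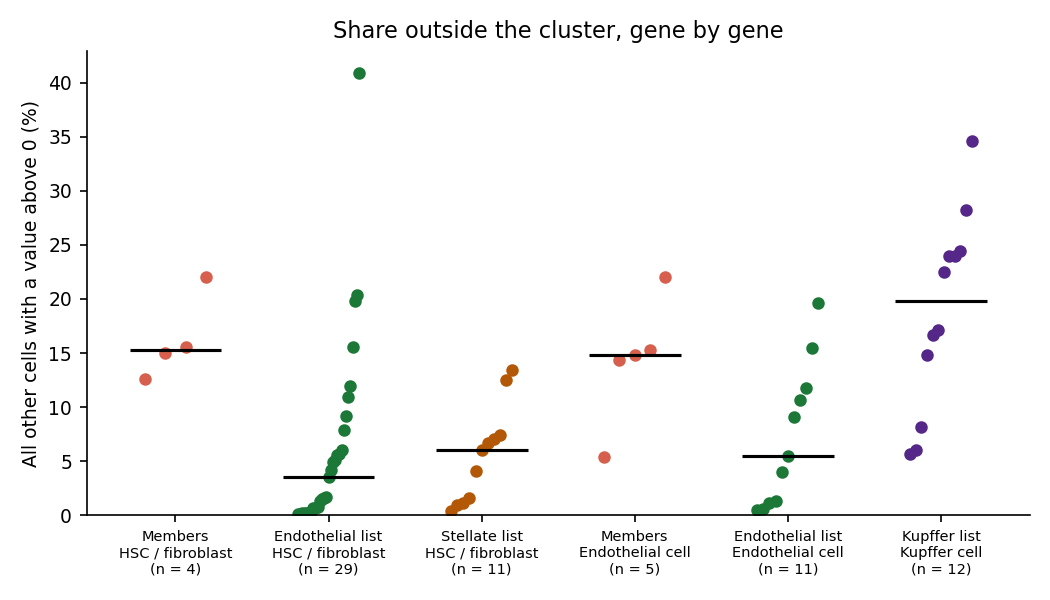
Share of all other cells with a value above 0 (y axis, percent), 1 point per gene, for the member genes and the marker lists in the cluster named under each column; horizontal lines are medians. The 4 members in the HSC and fibroblast cluster lie between 12.6% and 22.0%, around the median of 15.3% of all 535 genes listed for that cluster; the 29 endothelial genes have a median of 3.5%.

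Shares over all cells were computed from both shares of a row and the relative size of its cluster. The sizes came from the 1115 genes listed for at least 2 clusters, since such a gene must have the same share over all cells from each of its rows. The endothelial cluster made up 0.991% of the cells, the HSC and fibroblast cluster 0.171%, Kupffer cells 2.68%, B cells 2.19% and the hepatocyte clusters together 90.0%. Over all cells a value above 0 was found for Fcgr2b in 22.1%, Fabp4 in 15.7%, Clec4g in 15.0%, Mrc1 in 14.6%, Stab2 in 12.7% and Kdr in 5.65%. The rows of 1 gene gave nearly the same result, the widest range being 14.98% to 15.06% for Clec4g. That range measures only the agreement of rows over the same pooled cells, and no sampling or library spread. No error can be set beside the order of Clec4g at 15.0% and Mrc1 at 14.6%.

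Because the clusters with a row were small, they held a minor part of the cells in which the genes were above 0. The HSC and fibroblast cluster held 0.99% of the cells with Stab2, and the endothelial cluster 5.37% of those with Kdr. For Mrc1, Kupffer cells held 14.7% and the endothelial cluster 2.26%. The clusters without a row held 83.0% of the cells with Mrc1, 91.4% of those with Fcgr2b, 94.6% for Kdr, 96.0% for Fabp4, 97.2% for Clec4g and 99.0% for Stab2. Within those clusters, most of whose cells are hepatocytes, Mrc1 was above 0 in 12.6% of cells and Fcgr2b in 21.5%.

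**Figure D4:**
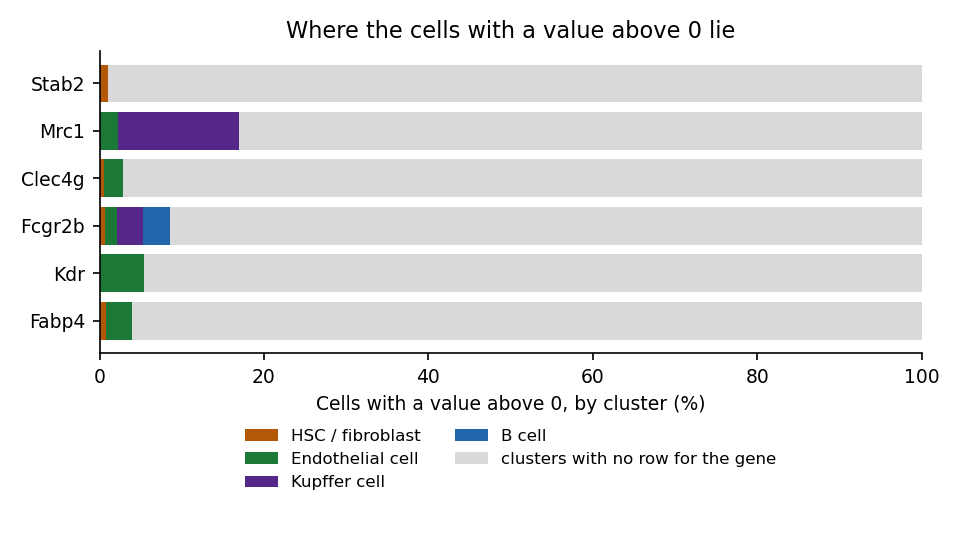
Cells with a value above 0 for each gene, split by cluster (x axis, percent of such cells); coloured parts are the clusters with a row for the gene and grey is the sum of the clusters without one. The coloured part is largest for Mrc1, for which the clusters without a row held 83.0%, and smallest for Stab2, for which they held 99.0%.

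Whether a value above 0 in the table of all cells is always a counted transcript is not known. Both deposited tables give the share inside hepatocyte clusters of the same names. Whether a name covers the same cells in both was not tested. For 825 pairs of gene and cluster name in both, the share was higher in the table of all cells in 704, equal in 104 and lower in 17. The median difference was 10.5 percentage points. The largest was that of Slco1a4, an organic anion transporter, in Hepatocyte5, at 93.4% in the table of all cells and 41.7% in the hepatocyte table. All shares of the 6 genes and of the marker lists in the 4 clusters, inside and outside, come from the first table alone. Shares inside these clusters may differ in the same way, which was not tested. For the shares of the 6 genes outside their clusters, expression in hepatocytes, free RNA in the droplets and values altered in processing cannot be told apart.

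Genes with the most similar pattern were sought among those listed for exactly the same clusters, by the sum of the absolute differences of both shares. For Stab2, the nearest of 158 genes was Tsc22d1, at 73.7% inside and 15.3% outside, followed by Stard8 and the stellate gene Des, both also at 73.7% inside. With the 16 distinct values of that cluster such ties are common, 73.7% being also the median of all its listed genes, and the order rests on the share outside. For Clec4g, the nearest of 21 was the endothelial gene Egfl7, at 38.0% in the endothelial cluster and 52.6% in the HSC and fibroblast cluster, followed by Bmp2 and Gpihbp1. For Fabp4, from the same 21 genes, it was Sparc, at 49.1% and 100%, followed by Dcn and Cavin2. For Kdr the nearest of 3 was Fam124a, at 31.5% against 15.1%, before Gng11 at 43.5% against 28.2%. Lepr, the last of the 3, went the other way, at 20.4% inside against 37.6% outside. For Fcgr2b no close gene was found. Of the 3 with rows for the same 4 clusters, Tcf4 lay 82.6 points away in sum and Tmem123 87.2, whereas by Euclidean distance Tmem123 came first (31.7 against 39.5 points). Unlike Fcgr2b, Tmem123 had the lower share inside both the endothelial cluster (15.7% against 31.4%) and Kupffer cells (16.2% against 31.7%). No other gene was listed for the endothelial and Kupffer clusters alone, as Mrc1 was.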

How the data were processed

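Single-cell libraries of hepatocyte preparations from mice given PBS or rIL-33 were analysed from 2 tables. Per the methods and labels, the authors aligned reads to mm10 and obtained UMI counts with Cell Ranger, and used Seurat to remove cells with over 3000 or under 200 genes or over 50% mitochondrial genes (the upper limit against doublets; no doublet caller was run here). They scaled counts to 10000 per cell, took the natural log, clustered on 50 principal components at resolution 5 and ran FindAllMarkers. The deposited fractions of cells above 0, with 3 decimals, are the authors' values for pooled cells and are printed as percentages. The columns of fold changes and p-values hold the authors' comparisons and were not used, so no p-value is given. Whether the values of the table of all cells were batch-integrated is not given in the sources used here. Depth per cell is unknown, and no counting interval is given.

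Genes were matched by symbol. Members and gene lists were chosen with earlier results of these data known. Named genes were the 6 members, up to 3 nearest genes of each, up to 5 genes per list with the largest differences in the endothelial cluster, marker genes listed for that cluster, and genes a statement turned on, which were chosen after their values were seen. Cluster sizes were fitted by least squares to 3102 rows, leaving 0.0224 percentage points of root mean square error. The fit was also run on simulated data. The error allowed there was larger than the whole HSC and fibroblast cluster, so passing says little about that size. Alternatives were other rows, least absolute deviations, shares at least 10 or 25 points apart, ranks by ratio and Euclidean distance. Promoters came from RefSeq (GRCm38.p6), coordinates from GENCODE M21. Python 3.11.15, NumPy 2.4.6, pandas 2.3.3 and matplotlib 3.10.9 were used.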

Additional observations from a re-analysis of the deposited data

How the results depend on the processing

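Of 75 values recomputed under an alternative, 72 stayed within 0.1 percentage points (shares) or a factor of 1.5 (counts and ranks) of the value reported. The limit of 0.1 points is large beside the 0.171% of the HSC and fibroblast cluster. It therefore tests that size and the shares of the members only weakly. For the nearest genes the number in common was compared, and not their order. Other fits gave the endothelial cluster 0.975% to 0.993% of the cells and the HSC and fibroblast cluster 0.166% to 0.173%, and moved no share of a member over all cells, or in the clusters without a row, by more than 0.0039 points. With shares at least 25 points apart, the endothelial cluster listed 8 endothelial genes in place of 11, and the HSC and fibroblast cluster 29. Ranked by the ratio of shares, Mrc1 was 88 in Kupffer cells in place of 7, and Fabp4 19 in the endothelial cluster in place of 4. By Euclidean distance 1 of the 3 genes nearest to Fabp4 was the same. No paired analysis was possible because each condition gave 1 library and the tables pool both. With no replicates, no library could be left out. Depth limits every share, since it is unknown per cell and cluster.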
